A study of Mus musculus with 24 samples.

Results

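This account covers a single question: which transcripts of the mouse digit tip changed differently between 12 and 21 days after a distal amputation than after a proximal one. For each gene, the change in mean log2(value + 1) from 12 to 21 days after proximal amputation was subtracted from the same change after distal amputation; the result is called the difference between levels. The contrast was formed for all 15055 genes and uses 16 of the 24 libraries of the study, in 4 groups of 4: distal amputation at 12 days, distal at 21 days, proximal at 12 days and proximal at 21 days. The remaining libraries, taken 14 days after either amputation, helped to estimate the spread. All mice were C57BL/6, an inbred strain, aged 10 to 12 weeks, and no untreated or unamputated digit was among the libraries. Each library held RNA of a hind limb digit tip with its bone, cartilage, marrow, dermis and epidermis, after removal of ribosomal RNA. No genotype is given, and whether a group's 4 libraries stem from 4 different mice is not stated; the p-values therefore rest on the variation among these libraries, some of which may be technical.

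The terminal phalanx of the adult mouse digit is known to regrow after an amputation through its distal part, whereas a more proximal amputation ends in a scarred stump. Regrowth is known to pass through a phase in which osteoclasts erode the stump bone, wound closure, a blastema of dividing fibroblast-like cells, and bone formation, while the nail organ grows out above. In a bulk sample, fewer cells of a type and less RNA per cell cannot be told apart, and this holds for every gene group below.

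The tissue named in the labels was compared with marker genes. All markers listed for bone, cartilage, dermis, epidermis, erythroid marrow, macrophages, endothelium and Schwann cells were among the genes analysed. So was 1 of 3 markers each for adipocytes, skeletal muscle and melanocytes, and 1 of 2 for sweat gland. Being among the genes analysed does not by itself establish a tissue. Of 6 neutrophil markers 2 were analysed, Csf3r and Cxcr2, and of 4 lymphocyte markers none. Values are deposited normalised values, of unknown sequencing depth; their upper quartile per library ran from 902.5 to 930.5. One library stood apart: on the second principal component, which held 21.79% of the variance, proximal 12 day replicate 1 lay at 24.96 and the other 3 libraries of its group between 43.9 and 46.9. The keratin, keratin-associated protein, osteoblast and osteoclast counts are given with and without it.

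Of 15055 genes, 2234 (14.8%) had a difference between levels with an adjusted p under 0.05 in limma, a linear model fitted across all genes with Benjamini-Hochberg adjustment; these are termed called. The difference was positive for 1117 genes (7.42%) and negative for 1117 (7.42%). It exceeded 2-fold in 345 of the positive and 282 of the negative genes. Without each library in turn, 760 positive and 701 negative genes were called with the same sign in all 16 fits. Dividing by the table total instead gave 595 positive and 1374 negative genes, so that 30.2% of calls were positive, and median-ratio factors gave 1227 and 1024 (54.5% positive). Between these scalings the median of all genes ran from -0.105 to 0.00582 in log2, against -0.0124 as deposited.

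The change within each level was tested in the same fit. After distal amputation 1326 genes (8.81%) rose from 12 to 21 days and 2258 (15.0%) fell, and after proximal amputation 1802 (12.0%) rose and 2563 (17.0%) fell. These shares of all genes are the background for the counts of rises and falls in each gene list below. The groups of the 2 levels share no libraries. A fall at both levels was called for 1002 genes, which were 44.4% of the distal and 39.1% of the proximal falls. A rise at both was called for 307 genes, 23.2% of the distal and 17.0% of the proximal rises. Opposite calls were fewer: 147 genes fell after distal and rose after proximal amputation (6.51% of the distal falls, 8.16% of the proximal rises), and 108 did the reverse (8.14% of the distal rises, 4.21% of the proximal falls). Over the genes with a positive difference the median change was 0.19 in log2 after distal and -0.52 after proximal amputation, and over those with a negative difference -0.30 and 0.27. The difference between levels is made of the same libraries as these changes, so they are its parts and not separate evidence for it.

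**Figure D1:**
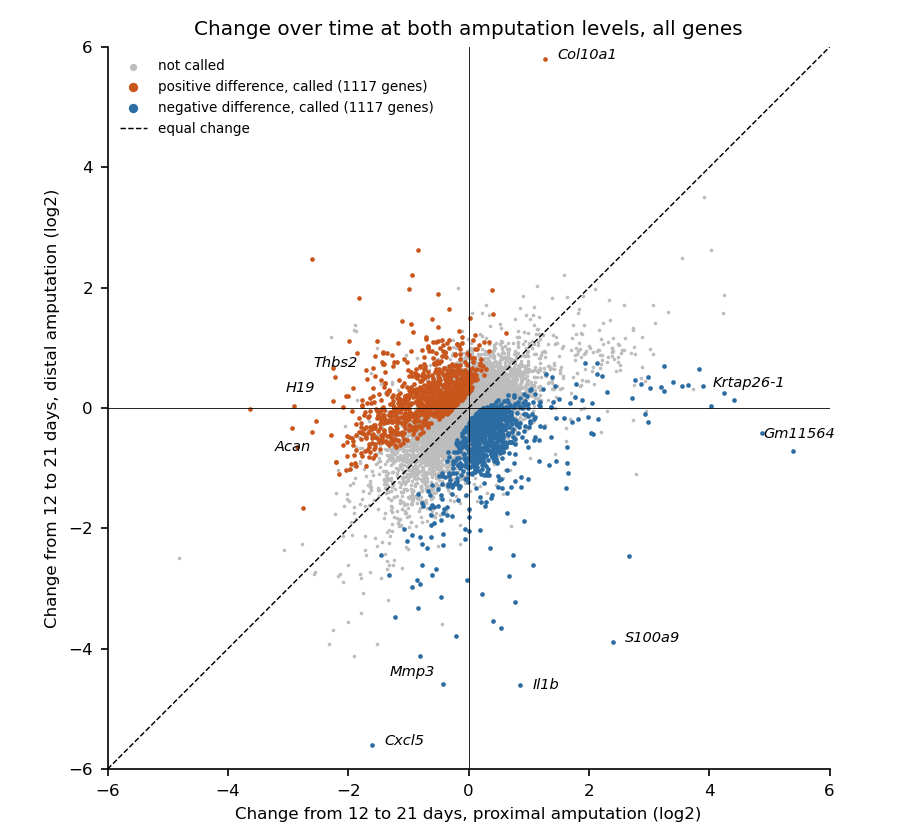
Change in log2(value + 1) from 12 to 21 days for each of 15055 genes, after proximal amputation on the horizontal and after distal amputation on the vertical axis; orange and blue points are the 1117 genes called with a positive and the 1117 called with a negative difference between levels, and the dashed line marks equal change. Il1b, Mmp3 and Cxcl5 lie far below the line with a distal fall, Krtap26-1 and Gm11564 lie to the right with a proximal rise, Thbs2, H19 and Acan lie to the left with a proximal fall, and Col10a1 lies at the top with a distal rise.

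Genes of acute inflammation were among those with the largest negative differences and were high at 12 days after distal amputation and low in most other libraries of the contrast. Of 8 measured members of a list of neutrophil and alarmin genes, 6 had a called negative difference and none a positive one. The 6 were 75.0% of the list, against 7.42% of all genes. The median was -3.63 in log2, against -0.01 over all genes. After distal amputation 6 of the 8 fell, with a median change of -2.97. After proximal amputation 1 rose and none fell, with a median of 0.56. The neutrophil receptor genes Csf3r and Cxcr2 summed to 142 to 283 in the distal 12 day libraries, 39 to 101 at 21 days, 91 to 118 in the proximal 12 day libraries and 73 to 128 at 21 days; the part of neutrophil number in the result was not tested.

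Il1b (chr2:129364570-129371139, GRCm38) encodes interleukin 1 beta, a cytokine that starts inflammatory responses. Its values after distal amputation were 212, 532, 468 and 293 at 12 days and 16, 9, 13 and 18 at 21 days. After proximal amputation they were 13, 13, 9 and 6 at 12 days and 28, 58, 4 and 16 at 21 days. The distal 12 day libraries thus lay above all other 12 libraries of the contrast. The distal fall was 24.3-fold, and the difference between levels was -5.45 ± 0.83 in log2 (moderated SE; limma, adjusted p = 0.000166).

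Nlrp3 (chr11:59541568-59566956), the sensor of an inflammasome that releases mature interleukin 1 beta, had the same arrangement. It stood at 149, 90, 232 and 134 in the distal 12 day libraries and at 12, 9, 9 and 12 at 21 days, against 21, 20, 10 and 12 and then 28, 34, 11 and 23 after proximal amputation. The distal 12 day values did not overlap those of any other group, and the difference was -4.19 ± 0.52 (limma, adjusted p = 2.17e-05). Il1b and Nlrp3 have their own fall after distal amputation (-4.60 and -3.66 in log2) and no called change after proximal amputation (0.85, adjusted p = 0.294, and 0.54, adjusted p = 0.288).

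The chemokine genes Cxcl1 and Cxcl5, whose products attract neutrophils through the receptor Cxcr2, lie near each other on chromosome 5 (90891241 to 90893115 and 90759360 to 90761624). Cxcl5 was at 255, 209, 388 and 101 in the distal 12 day libraries and at 3, 3, 3 and 5 at 21 days, a 48.5-fold fall. After proximal amputation it was at 22, 44, 12 and 20 and then at 5, 27, 3 and 4, which overlap, and the change of -1.6 was not called (adjusted p = 0.118). Its difference between levels was -4.0 ± 1.07 (limma, adjusted p = 0.0139). Cxcl1 fell from 105, 60, 257 and 106 to 13, 35, 8 and 28 after distal amputation, while it was at 18, 20, 15 and 15 and then at 38, 69, 32 and 21 after proximal amputation; its difference was -3.67 ± 0.68 (adjusted p = 0.000929). Csf3r, the receptor for the cytokine that drives neutrophil production, fell 8.51-fold after distal amputation, with a difference of -3.31 ± 0.91 (adjusted p = 0.0168), whereas Cxcr2 fell 1.93-fold there and its difference of -0.76 ± 0.36 was not called (adjusted p = 0.164).

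S100a8 and S100a9 encode the 2 subunits of calprotectin, an alarmin of neutrophils and stressed keratinocytes, and lie side by side on chromosome 3 (90668978 to 90670035 and 90692632 to 90695721). S100a9 stood at 681, 906, 1489 and 477 at 12 days after distal amputation and at 69, 102, 35 and 35 at 21 days. After proximal amputation it stood at 161, 107, 44 and 151 at 12 days and at 96, 3080, 3103 and 98 at 21 days. The proximal 21 day group was therefore split, with replicates 2 and 3 above all distal libraries of the contrast and replicates 1 and 4 within the range of its 12 day group. S100a8 divided the same libraries, with 247, 2851, 2830 and 145 in the proximal 21 day group. Krt17, a keratin of wounded epidermis, was also highest in those 2 libraries (51380 and 75857, against 23802 and 24778). Krt6a was highest there by a small margin (60698 and 69737, against 60193 and 46207). The wound keratins Krt16, Krt6b and Krt75 were not split this way. Each had replicate 3 below replicate 1, such as Krt16 at 29040 against 37953. The differences between levels were -6.28 ± 1.70 for S100a9 (adjusted p = 0.0149) and -5.13 ± 1.35 for S100a8 (adjusted p = 0.0126). The distal fall of S100a9 was called (-3.88, adjusted p = 0.0216) and that of S100a8 was not (-2.47, adjusted p = 0.0641).

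Slpi, an inhibitor of neutrophil proteases made by epithelia, stood at 362, 195, 612 and 299 in the distal 12 day libraries and at 30, 55, 32 and 29 at 21 days. After proximal amputation its values of 81, 121, 34 and 100 and then 204, 212, 148 and 45 overlapped, and its difference was -3.99 ± 0.85 (limma, adjusted p = 0.00273). Of 16 macrophage genes 1 was called in each direction (6.25%, near the 7.42% of all genes). Cd14, a co-receptor for bacterial lipopolysaccharide, had a negative difference (-1.16 ± 0.22, adjusted p = 0.00112) and Trem2, a lipid receptor of tissue macrophages, a positive one (1.26 ± 0.36, adjusted p = 0.0197). Cd14 fell 2.69-fold after distal amputation, from 309 to 356 down to 105 to 141. Trem2 fell 2.35-fold after proximal amputation and was at 36 to 73 and then 47 to 62 after distal amputation. Summed over 4 macrophage markers, the libraries lay at 1616 to 2811 and then 843 to 1299 after distal, and at 1964 to 3707 and then 1041 to 1437 after proximal amputation.

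Genes for matrix metalloproteinases, enzymes that cut extracellular matrix, and their inhibitors were divided. Of 17 measured, 3 had a called negative and 5 a called positive difference (17.6% and 29.4%, against 7.42% of all genes in each direction). The negative calls were Mmp3, Mmp12 and Mmp13, which lie together on chromosome 9 between 7272514 (start of Mmp13) and 7455975 (end of Mmp3). The list's median of -0.0016 changed sign with the scaling, so no direction is given for it.

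Mmp13, the collagenase of bone remodelling and cartilage turnover, was at 5663, 2583, 6962 and 6092 in the distal 12 day libraries and at 323, 210, 168 and 586 at 21 days. In the proximal libraries it was at 3831, 750, 1881 and 1544 and then at 863, 1631, 638 and 968. The distal groups did not overlap and the proximal groups did. The distal fall was 17.4-fold, and the difference between levels was -3.31 ± 0.62 (limma, adjusted p = 0.00106). Mmp3, or stromelysin, fell 24.1-fold after distal amputation, from 378 to 2816 down to 23 to 64, with a difference of -4.17 ± 0.81 (adjusted p = 0.0014). The call for Mmp12, the macrophage elastase (-3.57 ± 1.18, adjusted p = 0.0447), was lost in 12 of the 16 fits that leave out 1 library, with adjusted p of up to 0.101, and its proximal values ranged from 26 to 748.

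The positive members were Mmp11 (2.16 ± 0.49, adjusted p = 0.00434), Mmp23 (1.48 ± 0.30, adjusted p = 0.00213) and Mmp14 (1.32 ± 0.17, adjusted p = 3.77e-05), and Timp2 and Mmp2, both named after their values were seen. Mmp14, the membrane-bound enzyme that activates the Mmp2 protein, stood at 10473, 10833, 8734 and 9167 at 12 days and at 3447, 3613, 2371 and 3347 at 21 days after proximal amputation, a 3.10-fold fall with no overlap. After distal amputation it stood at 5464, 4349, 5709 and 4886 and then at 4490, 3692, 4638 and 3652, which overlap (-0.31, adjusted p = 0.0677). Mmp2 and the inhibitor gene Timp2 fell 2.47-fold and 2.22-fold after proximal amputation, while their distal changes of -0.33 and 0.05 were not called. Thus the 3 negative members fell after distal amputation and the positive members Mmp11, Mmp23, Mmp14, Timp2 and Mmp2 fell after proximal amputation.

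**Figure D2:**
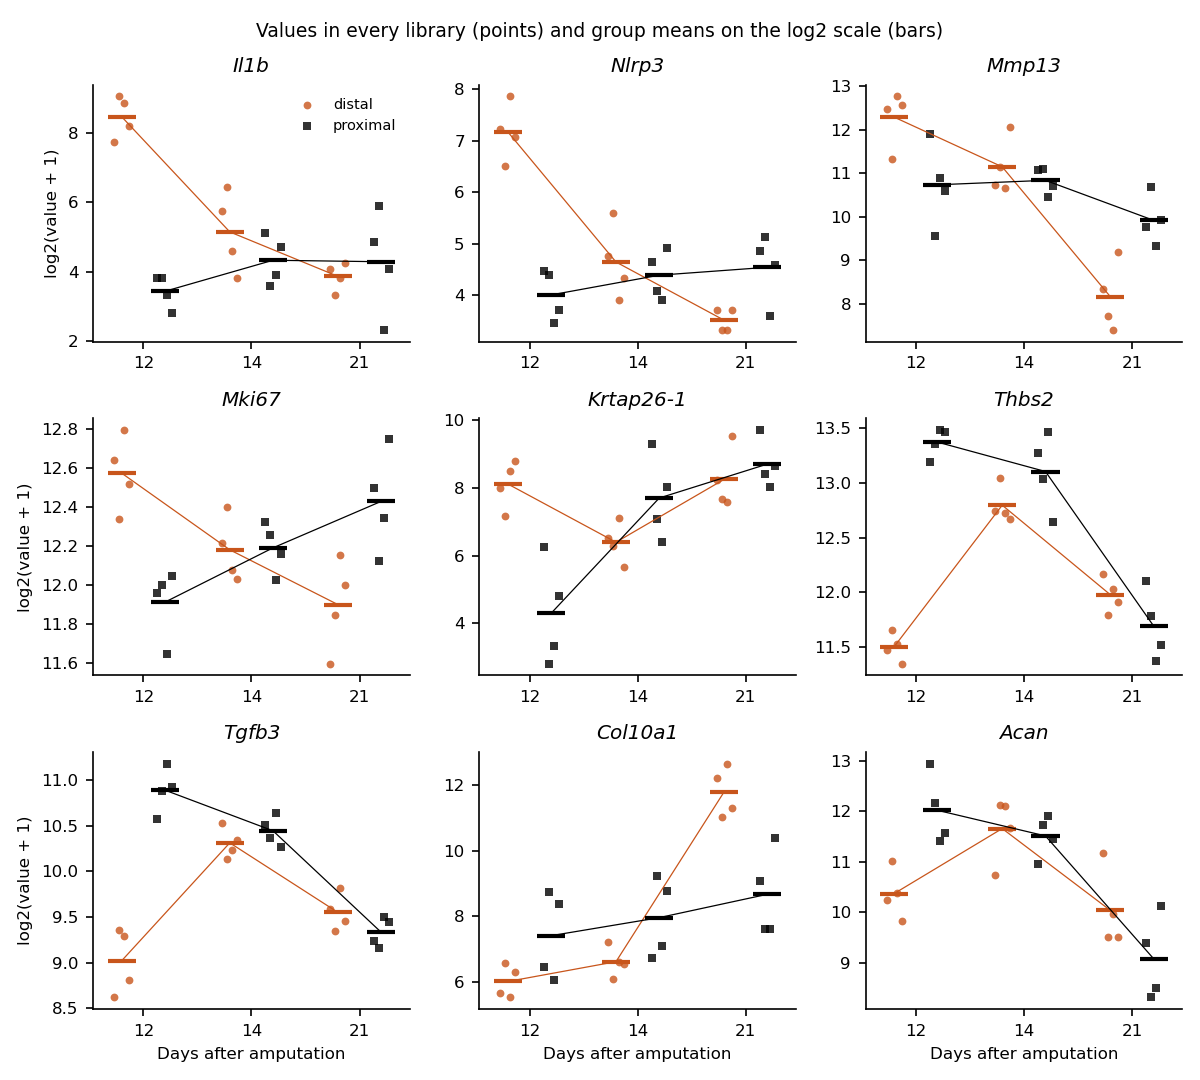
Log2(value + 1) in single libraries (points) and the group mean on that scale (bars, joined by lines) for 9 genes at 12, 14 and 21 days, with the days drawn as evenly spaced categories, after distal (orange) and proximal amputation (black). Il1b is high in the 4 distal 12 day libraries, Thbs2 and Tgfb3 start highest after proximal amputation and pass through a high point at 14 days after distal amputation, and Col10a1 is high in the 4 distal 21 day libraries.

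Genes of cell division and DNA replication had mostly negative differences. Of 30 measured genes of mitosis, 29 (96.7%, against 7.42% of all genes) had a called negative difference and none a positive one. The median was -1.04. All 30 fell after distal amputation (median -0.98), while 4 rose and 1 fell after proximal amputation (median 0.09). Of 36 replication genes 27 had a negative difference (75.0%, against 7.42% of all genes), with a median of -0.89. Of these 36, 25 fell after distal amputation (median -0.56) and 15 rose after proximal amputation (median 0.26). Both lists were drawn up with the direction of proliferation genes in these data known, so their direction is not independent evidence.

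The promoters of both lists are shown to set out what their members share in sequence. They run from 250 bases before to 50 after the start in RefSeq on GRCm38.p6. The motifs were CCAAT, the box of the factor NF-Y, TTTGAA, the cell cycle homology region read by the DREAM and MuvB complexes, and the E2F-type motifs TTCCCGC and TTGGCGC, each on both strands. TTCCCGC and TTGGCGC can overlap with themselves or with each other's reverse, and no promoter was weighted by its number of matches. Promoters were matched by symbol for 25 of the 30 mitosis genes (27 promoters), 28 of the 36 replication genes (33 promoters) and 10756 of all 15055 genes (13726 promoters). In the mitosis list 77.8% of promoters held CCAAT, 77.8% held TTTGAA and 66.7% held both, against 36.8%, 12.2% and 4.86% of all promoters. In the replication list 57.6% held CCAAT and 12.1% TTTGAA. An E2F-type motif stood in 51.5% of replication promoters, 18.5% of mitosis promoters and 11.3% of all promoters. It stood in 22.2% of ribosome biogenesis promoters and in 0.0% of fibroblast matrix and of limb patterning promoters. A match is a description of the letters, not a bound site. The sequences of 3 mitosis genes, Plk1 (chr7:122159185-122159484, plus strand), Cdc20 (chr4:118437294-118437593, minus strand) and Ect2 (chr3:27153829-27154128, minus strand), show CCAAT and TTTGAA in capitals, on either strand. Those of 2 replication genes, Mcm5 (chr8:75109259-75109558, plus strand) and Mcm3 (chr1:20820263-20820562, minus strand), show the E2F-type motifs in capitals.
Plk1: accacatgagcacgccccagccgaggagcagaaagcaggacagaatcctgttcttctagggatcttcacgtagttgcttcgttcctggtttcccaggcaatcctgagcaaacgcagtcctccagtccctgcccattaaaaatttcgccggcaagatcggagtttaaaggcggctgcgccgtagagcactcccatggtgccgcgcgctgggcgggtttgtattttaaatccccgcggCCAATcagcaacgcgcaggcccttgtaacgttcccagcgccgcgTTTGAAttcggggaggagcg
Cdc20: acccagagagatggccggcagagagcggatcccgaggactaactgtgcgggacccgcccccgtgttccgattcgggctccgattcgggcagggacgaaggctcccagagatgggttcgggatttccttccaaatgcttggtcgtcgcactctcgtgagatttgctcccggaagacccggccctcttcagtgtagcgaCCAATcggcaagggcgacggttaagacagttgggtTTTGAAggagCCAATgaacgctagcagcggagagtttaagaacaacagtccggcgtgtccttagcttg
Ect2: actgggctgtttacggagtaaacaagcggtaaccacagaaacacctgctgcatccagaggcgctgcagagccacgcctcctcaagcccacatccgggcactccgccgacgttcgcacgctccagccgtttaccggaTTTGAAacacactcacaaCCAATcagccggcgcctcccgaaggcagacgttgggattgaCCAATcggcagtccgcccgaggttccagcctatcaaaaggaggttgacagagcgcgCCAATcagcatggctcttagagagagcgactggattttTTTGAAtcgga
Mcm5: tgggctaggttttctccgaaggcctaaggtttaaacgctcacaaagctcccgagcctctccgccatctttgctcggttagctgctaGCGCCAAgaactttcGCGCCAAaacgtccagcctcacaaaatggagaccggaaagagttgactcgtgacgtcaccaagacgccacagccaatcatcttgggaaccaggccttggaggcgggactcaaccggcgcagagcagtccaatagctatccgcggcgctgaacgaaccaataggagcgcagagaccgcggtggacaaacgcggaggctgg
Mcm3: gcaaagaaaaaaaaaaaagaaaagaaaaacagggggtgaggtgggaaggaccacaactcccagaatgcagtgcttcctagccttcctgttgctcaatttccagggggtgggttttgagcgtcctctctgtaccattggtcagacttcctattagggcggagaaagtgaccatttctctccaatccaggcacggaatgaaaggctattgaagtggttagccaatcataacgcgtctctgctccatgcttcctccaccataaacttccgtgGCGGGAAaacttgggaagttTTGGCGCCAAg

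Plk1, a kinase that drives entry into and exit from mitosis, had the largest difference of the mitosis list. It stood at 299, 308, 530 and 268 at 12 days and at 89, 136, 149 and 128 at 21 days after distal amputation, without overlap. After proximal amputation it stood at 244, 206, 122 and 192 and then at 187, 158, 151 and 236, fully overlapping. The distal fall was 2.73-fold and the difference -1.41 ± 0.32 (limma, adjusted p = 0.00439). Cdc20, the activator of the anaphase promoting complex, fell from 543, 650, 1146 and 655 to 247, 300, 361 and 325 after distal amputation, with a proximal change of -0.01, and its difference was -1.22 ± 0.24 (adjusted p = 0.00146). Ect2, which starts cytokinesis, had a difference of -1.20 ± 0.24 (adjusted p = 0.00159), with a distal change of -0.81 and a proximal change of 0.39 that was not called (adjusted p = 0.0837).

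Anln and Mki67 moved in opposite directions at the 2 levels. Anln, a scaffold of the cytokinetic ring, fell 1.81-fold after distal amputation and rose 1.37-fold after proximal amputation (difference -1.31 ± 0.17, adjusted p = 3.29e-05). Mki67, the proliferation marker that coats mitotic chromosomes, fell from 6382, 5185, 7112 and 5871 to 3093, 3684, 4556 and 4092 after distal amputation. After proximal amputation it rose from 3973, 4091, 3204 and 4221 to 5787, 4455, 5204 and 6888. Neither pair of groups overlapped. The mitosis gene without a call was Kif2c, a microtubule depolymerase (-0.84 ± 0.35, adjusted p = 0.114).

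The replication genes with the largest differences were Ccne1, which encodes cyclin E1 of the G1/S transition, Mcm5, Mcm2 and Mcm3, subunits of the replicative helicase, Mcm10, which helps to start the helicase, and Uhrf1, which maintains DNA methylation behind the fork. Mcm5 stood at 1266, 824, 1123 and 1137 and then at 675, 678, 565 and 865 after distal amputation, where a single 21 day library reached into the 12 day range. After proximal amputation it rose from 661, 652, 650 and 729 to 1089, 795, 1017 and 1196 without overlap. Its difference was -1.23 ± 0.22 (limma, adjusted p = 0.000568), with a 1.56-fold distal fall and a 1.51-fold proximal rise. Mcm10 fell from 197, 186, 243 and 179 to 120, 128, 107 and 135 after distal and rose from 130, 116, 127 and 126 to 178, 164, 178 and 178 after proximal amputation, and its difference was -1.19 ± 0.14 (adjusted p = 1.58e-05). Mcm2, Mcm3 and Uhrf1 fell 1.63-fold, 1.6-fold and 1.59-fold after distal and rose 1.44-fold, 1.42-fold and 1.41-fold after proximal amputation. Ccne1 fell 2.13-fold after distal amputation, and its proximal change of 0.20 was not called (adjusted p = 0.541).

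Genes of ribosome biogenesis had smaller differences in the same direction. Of 20 measured, 16 had a called negative difference (80.0%, against 7.42% of all genes), with a median of -0.49. After distal amputation 8 of the 20 fell (median -0.23), and after proximal amputation 14 rose and none fell (median 0.30). Utp20, a component of the small subunit processome, stood at 1529, 1352, 1316 and 1329 and then at 1077, 1101, 1137 and 1153 after distal, and at 1013, 1090, 996 and 1256 and then at 1533, 1495, 1450 and 1501 after proximal amputation. Neither pair of groups overlapped, and its difference was -0.77 ± 0.10 (limma, adjusted p = 3.19e-05). Dkc1, the pseudouridine synthase of ribosomal RNA, fell 1.22-fold and rose 1.33-fold (difference -0.70 ± 0.10, adjusted p = 5.56e-05). Ncl, which encodes nucleolin, and Rrs1, which acts in large subunit assembly, rose 1.35-fold and 1.43-fold after proximal amputation, while their distal changes of -0.28 and -0.22 were not called.

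**Figure D3:**
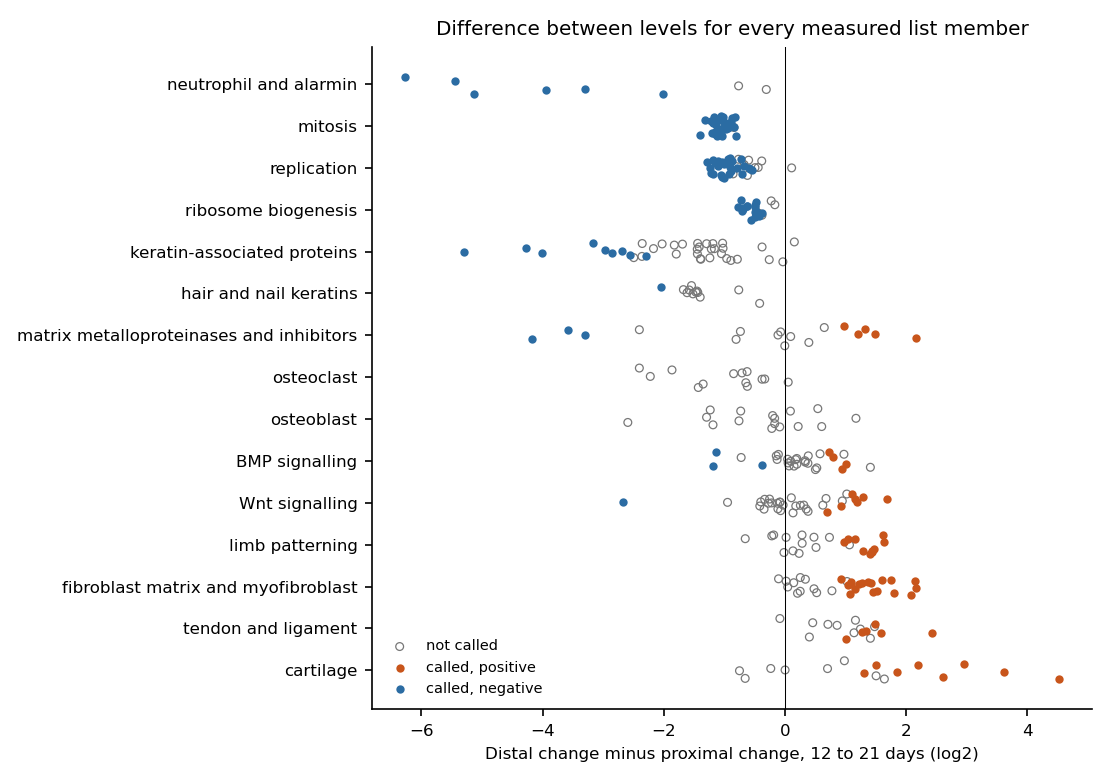
Difference between levels (distal change minus proximal change, log2) for each measured member of 15 gene lists; filled points have an adjusted p under 0.05 and open points do not. The mitosis, replication and ribosome biogenesis points lie left of zero with few exceptions, the called fibroblast, tendon, cartilage and limb patterning members lie to the right, and the metalloproteinases lie on both sides.

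Genes of the nail plate rose after proximal amputation, and for some of them this gave large negative differences. The list of 38 keratin-associated proteins, which cross-link hard keratin in hair and nail, had 9 called negative differences and no positive one (median -1.44). The 9 were 23.7% of the list, against 7.42% of all genes. After proximal amputation 32 of the 38 rose (median 2.42), and after distal amputation none was called (median 0.93). Of 12 hair and nail keratins 10 rose after proximal and none was called after distal amputation (medians 2.36 and 0.90). The difference between levels was called for Krt82 alone, which is 8.33% of the list and near the 7.42% of all genes. Many of these genes are near-identical copies, and the counting could split reads between them. Summed over Krt5, Krt14 and Krt10, the general epidermal markers lay at 249800 to 304640 and then 197682 to 278702 after distal, and at 267418 to 419002 and then 290472 to 330469 after proximal amputation.

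Single libraries moved these counts. Without proximal 12 day replicate 1, 18 keratin-associated proteins and 7 hair and nail keratins were called negative. Without distal 12 day replicate 3, distal 21 day replicate 2, proximal 12 day replicate 3, proximal 21 day replicate 1 or proximal 21 day replicate 4, 5 keratin-associated proteins were called. Without distal 21 day replicate 4 or proximal 21 day replicate 2, 2 hair and nail keratins were called. In every one of these fits the called members were negative.

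Krtap28-10 (chr1:83041524-83042480) stood at 12, 1, 3 and 3 at 12 days and at 195, 107, 94 and 152 at 21 days after proximal amputation, a 29.3-fold rise. After distal amputation it stood at 40, 29, 117 and 51 and then at 48, 45, 30 and 33, which overlap. Its difference between levels was -5.29 ± 0.85 (limma, adjusted p = 0.000279). Krtap26-1 (chr16:88646824-88647796) rose from 75, 6, 9 and 27 to 838, 340, 261 and 402 after proximal amputation. Its distal values of 252, 144, 358 and 447 and then 298, 203, 189 and 744 lay above every proximal 12 day library, and its difference was -4.27 ± 0.92 (adjusted p = 0.00313). Krtap4-13 rose 19-fold after proximal amputation and had a difference of -4.0 ± 1.00 (adjusted p = 0.00901).

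Of the 14 largest negative differences, 3 belonged to genes with predicted-gene names, Gm11564, Gm11596 and Gm11568. All 3 lie on chromosome 11, at 99814976 to 99815666, 99792389 to 99793467 and 99857917 to 99859061, among the genes of the Krtap4 and Krtap9 families; in the annotation Krtap4-13 comes just before Gm11564. Gm11564 stood at 6, 3, 3 and 0 at 12 days and at 187, 146, 81 and 152 at 21 days after proximal amputation. Its difference was -6.10 ± 1.25 (limma, adjusted p = 0.00211). Gm11596 and Gm11568 rose 16.3-fold and 14.8-fold after proximal amputation, and their distal changes of 0.03 and 0.37 were not called. Krt82, a keratin of the hair cuticle, rose from 464, 148, 155 and 206 to 1281, 707, 1272 and 1136 after proximal amputation, with a difference of -2.04 ± 0.44 (adjusted p = 0.0028). Its distal values of 1191, 1929, 1727 and 1617 and then 1864, 1975, 1086 and 3289 overlapped.

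Many extracellular matrix genes were high at 12 days after proximal amputation and fell there. Of 30 genes of fibroblast matrix and myofibroblasts, 18 (60.0%, against 7.42% of all genes) had a called positive difference and none a negative one. The median was 1.08. After proximal amputation 26 fell and 2 rose (median -1.55), and after distal amputation 11 fell and 6 rose (median -0.39). Summed over Col1a1, Col3a1 and Dcn, the dermal markers lay at 399652 to 527162 at 12 days and 109908 to 170252 at 21 days after proximal amputation, and at 198631 to 323414 and then 139728 to 181100 after distal amputation; the part of fibroblast number in these results was not tested.

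Thbs2 (chr17:14665500-14694235), a matricellular protein that limits vessel growth and binds metalloproteinases, stood at 9365, 10458, 11469 and 11316 at 12 days and at 4395, 3518, 2645 and 2927 at 21 days after proximal amputation. After distal amputation it stood at 2847, 3218, 2955 and 2603 and then at 4611, 3553, 4183 and 3856. Both pairs of groups were free of overlap, the proximal fall being 3.21-fold and the distal rise 1.39-fold. The difference was 2.16 ± 0.22 (limma, adjusted p = 3.41e-06). The contrast takes no account of 14 days, when the distal libraries stood at 6864, 8439, 6786 and 6519, above both the distal 12 and 21 day groups. Its relative Thbs1 rose 1.95-fold after distal and fell 1.72-fold after proximal amputation (difference 1.75 ± 0.28, adjusted p = 0.000271).

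Tgfb3 encodes an isoform of transforming growth factor beta, the growth factor family that drives matrix production. It fell from 1520, 1882, 2318 and 1946 to 600, 570, 720 and 697 after proximal amputation and was at 392, 655, 626 and 448 and then 769, 650, 898 and 699 after distal amputation, where the groups overlap at a single library and the 1.44-fold rise was called. The distal 14 day libraries, at 1480, 1126, 1203 and 1297, again lay above both. The difference was 2.09 ± 0.21 (limma, adjusted p = 3.51e-06). Itgbl1, an integrin beta-like secreted protein, rose 1.66-fold after distal and fell 2.67-fold after proximal amputation (2.15 ± 0.29, adjusted p = 4.7e-05).

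Aspn (asporin, a small leucine-rich proteoglycan), Col5a2 (a chain of collagen V, which sets collagen fibril diameter) and Postn (periostin) fell after proximal amputation and had no called distal change. Postn stood at 50889, 39720, 42370 and 56214 and then at 15855, 18622, 9627 and 9533 after proximal amputation, and at 18102, 14455, 16254 and 11269 and then at 15218, 10944, 7464 and 10989 after distal amputation. Col5a2 fell from 44006, 35610, 35080 and 40512 to 12556, 10872, 8494 and 10808, with a difference of 1.6 ± 0.18 (limma, adjusted p = 7.11e-06). Aspn fell from 8167, 7841, 7181 and 9959 to 3193, 2994, 3319 and 3003 (difference 1.81 ± 0.27, adjusted p = 0.000113). The genes of collagen I fell after proximal amputation as well, Col1a1 2.92-fold and Col1a2 3.08-fold, but their differences between levels of 0.78 ± 0.42 (adjusted p = 0.228) and 1.03 ± 0.42 (adjusted p = 0.106) were not called.

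Of 16 tendon and ligament genes, 6 had a called positive difference (37.5%, against 7.42% of all genes). Each of the 6 was called in all 16 fits that leave out 1 library. Scx, the transcription factor of tendon progenitors, stood at 330, 438, 342 and 329 and then at 103, 109, 112 and 137 after proximal amputation. After distal amputation it stood at 284, 284, 224 and 256 and then at 253, 254, 267 and 235, an overlap of the groups and a change of -0.05. The difference was 1.58 ± 0.14 (limma, adjusted p = 1.25e-06). Ogn (osteoglycin) rose 1.82-fold after distal and fell 2.94-fold after proximal amputation (2.42 ± 0.36, adjusted p = 0.000143). Tnn (tenascin N), Lum (lumican), Col12a1 (collagen XII) and Fmod (fibromodulin) fell 4.25-fold, 2.27-fold, 3.14-fold and 3.86-fold after proximal amputation. Their distal changes were -0.61 (adjusted p = 0.0173), 0.17 (0.586), -0.38 (0.0856) and -0.94 (0.00192). Decorin (Dcn) and tenomodulin (Tnmd) had no called difference (0.40 ± 0.27 and 0.86 ± 0.52).

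Further genes among the 14 largest positive differences divided by which level moved. Col8a1 and Col8a2, the chains of collagen VIII, rose 2.64-fold and 1.88-fold after distal and fell 1.95-fold and 3.63-fold after proximal amputation. Col8a1 stood at 862, 1311, 709 and 992 and then at 2838, 2289, 3118 and 1906 after distal, and at 2616, 3924, 3691 and 3912 and then at 2551, 1437, 1633 and 1714 after proximal amputation, so that neither pair of groups overlapped. Its difference was 2.36 ± 0.27 (limma, adjusted p = 1.17e-05) and that of Col8a2 2.77 ± 0.40 (adjusted p = 9.8e-05). Lsp1, an actin-binding protein, and C1qtnf2, a secreted protein related to C1q, also had called changes at both levels, a distal rise (1.54-fold and 1.89-fold) and a proximal fall (3.25-fold and 2.55-fold).

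Others fell after proximal amputation without a called distal change. H19 (chr7:142575529-142578143), an imprinted non-coding RNA of growing tissue, stood at 704, 2354, 1499 and 1331 and then at 104, 168, 189 and 316 after proximal amputation, a 7.46-fold fall. After distal amputation it stood at 322, 196, 171 and 188 and then at 167, 318, 224 and 186, and its difference was 2.93 ± 0.48 (limma, adjusted p = 0.000319). Cadps, which encodes a protein that primes vesicles for exocytosis, stood at 39, 124, 49 and 129 and then at 42, 32, 25 and 12 after proximal amputation, where the groups overlapped and the 2.87-fold fall was called. Its distal values were 25, 34, 39 and 26 and then 103, 75, 72 and 36, a change that missed the threshold (adjusted p = 0.0721). The difference for Cadps was 2.63 ± 0.63 (limma, adjusted p = 0.00639). Epha3, an ephrin receptor, F5, which encodes coagulation factor V, Csrp2, a LIM protein of smooth muscle and fibroblasts, and Fbn2, which encodes fibrillin 2 of elastic fibres, fell 4.77-fold, 4.66-fold, 4.75-fold and 5.80-fold there. Their differences were 2.92 ± 0.48, 2.74 ± 0.37, 2.37 ± 0.31 and 2.31 ± 0.40. Pdgfrb, the receptor of pericytes and fibroblasts, fell from 2850, 2554, 2865 and 2420 to 1342, 1025, 1020 and 1092 after proximal amputation with a distal change of -0.06 (difference 1.20 ± 0.15, adjusted p = 1.78e-05). It was the only one of 10 pericyte and smooth muscle genes with a called difference.

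**Figure D4:**
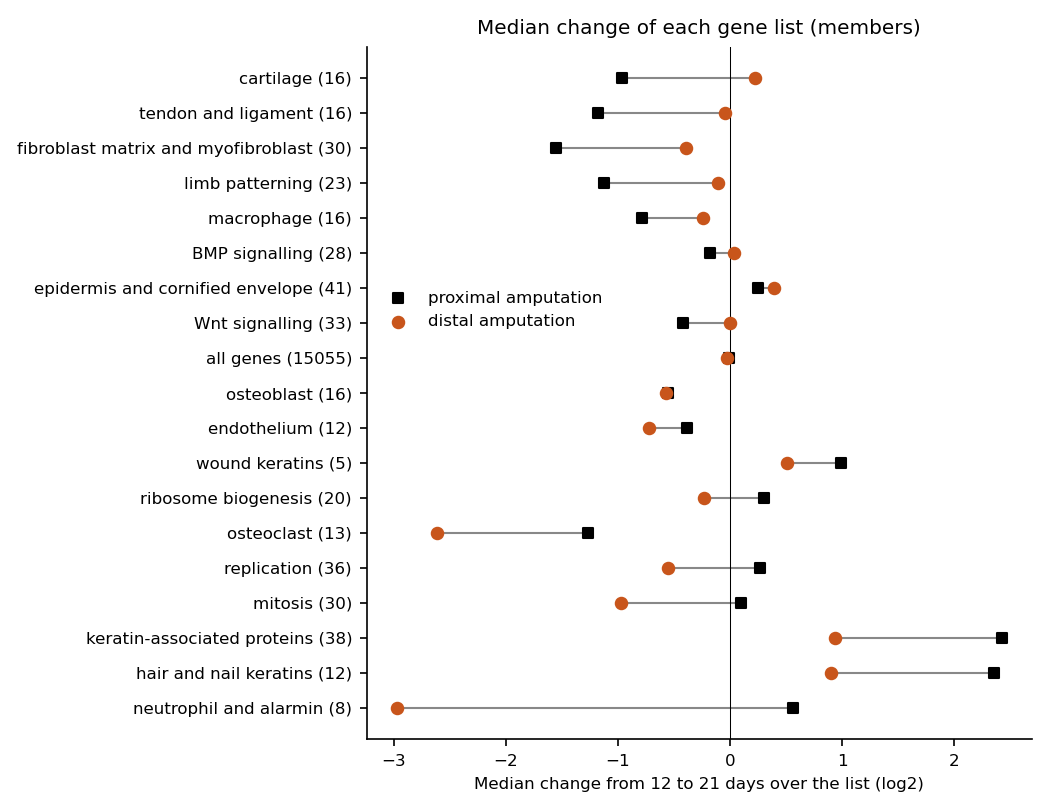
Median change from 12 to 21 days (log2) over the measured members of a selection of the gene lists and of all genes, with the number of members in brackets, after distal (orange circles) and proximal amputation (black squares). The medians of the neutrophil and alarmin list lie far apart (-2.97 and 0.56), as do those of the nail keratin lists, whereas both medians of the osteoblast list lie together (-0.57 and -0.56).

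Cartilage genes had 8 called positive differences among 16 measured and no negative one (median 1.51). After distal amputation 3 rose, and after proximal amputation 6 fell and 2 rose. Summed over Col2a1, Acan and Sox9, the cartilage markers lay at 2083 to 3224 and then 1598 to 5135 after distal, and at 3475 to 8892 and then 1425 to 2667 after proximal amputation.

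Col10a1 (chr10:34389981-34397085) encodes collagen X, the defining collagen of hypertrophic chondrocytes. It stood at 49, 95, 45 and 77 at 12 days and at 4762, 2091, 6507 and 2526 at 21 days after distal amputation, a 55.5-fold rise. After proximal amputation it stood at 87, 425, 66 and 332 and then at 535, 196, 196 and 1340, and its change of 1.26 was not called (adjusted p = 0.152). At 14 days the distal libraries were still at 148, 67, 96 and 93. Each distal 21 day library lay above all other libraries of the contrast, and the difference was 4.53 ± 0.92 (limma, adjusted p = 0.00198). The other cartilage genes did not share this rise in full: Col9a2, a chain of collagen IX, rose 3.94-fold after distal amputation, from 10 to 24 up to 45 to 152, whereas the distal changes of Acan (-0.33), Hapln1 (0.20), Col11a1 (-0.45) and Col2a1 (0.25) were not called.

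Acan, the large proteoglycan aggrecan, fell from 7898, 4605, 2721 and 3031 to 672, 318, 363 and 1111 after proximal amputation, and Hapln1, the link protein that binds aggrecan to hyaluronan, fell 3.99-fold. Col11a1, a fibril collagen of cartilage and other matrices, fell from 9797, 5811, 6162 and 6274 to 1798, 920, 1152 and 2005. Matn3, a cartilage matrilin, fell 12.4-fold there, with a difference of 3.61 ± 1.05 (limma, adjusted p = 0.0226) that was no longer called without distal 12 day replicate 1 (3.31, adjusted p = 0.0524) or distal 21 day replicate 1 (3.20, adjusted p = 0.0523). The call for Sox5 was also lost in some of these fits, such as without distal 12 day replicate 1 (1.19, limma, adjusted p = 0.054). Sox9, the master transcription factor of chondrocytes, rose 1.93-fold after proximal amputation, and its difference of -0.66 ± 0.34 was not called (adjusted p = 0.21). The difference of Col2a1 was 1.64 and was not called either (limma, adjusted p = 0.316).

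Transcription factors of limb patterning had 10 called positive differences among 23 measured (43.5%, against 7.42% of all genes) and no negative one. The median was 0.74. Of the 10, 7 were called in all 16 fits that leave out 1 library. After proximal amputation 16 fell and 1 rose, and after distal amputation 4 fell and 1 rose. En1, a homeobox gene of ventral limb ectoderm that is also active in dermal fibroblasts, stood at 632, 727, 622 and 679 and then at 233, 293, 178 and 413 after proximal amputation. After distal amputation it stood at 776, 826, 850 and 887 and then at 1102, 732, 1300 and 1071, with overlap, and its difference was 1.62 ± 0.28 (limma, adjusted p = 0.000528). Prrx2, a homeobox gene of limb mesenchyme, fell from 650, 687, 762 and 736 to 210, 217, 207 and 211 after proximal amputation, 3.34-fold, and 1.27-fold after distal amputation (difference 1.40 ± 0.16, adjusted p = 1.26e-05).

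Hoxa13, which specifies the digits, Tbx4, which marks the hind limb, and Lhx9, a LIM homeobox gene of limb bud outgrowth, fell 2.75-fold, 2.69-fold and 3.44-fold after proximal amputation with no called distal change. Their differences were 1.44 ± 0.30, 1.44 ± 0.27 and 1.47 ± 0.28. Msx1, a homeobox gene linked with digit tip regrowth, fell 2.23-fold after proximal amputation, with a difference of 1.15 ± 0.33 (limma, adjusted p = 0.0219). The call for Msx1 was lost without distal 12 day replicate 1 (0.97, adjusted p = 0.0557), proximal 12 day replicate 3 (1.03, adjusted p = 0.0511) or proximal 21 day replicate 2 (1.00, adjusted p = 0.0501). Its relative Msx2, which is also active in the nail matrix, had values of 136 to 261 and then 156 to 253 after proximal and 635 to 1023 and then 661 to 1356 after distal amputation, and a difference of 0.29 ± 0.38 that was not called.

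Of 28 genes of BMP signalling, the pathway of bone-inducing ligands, 4 had a positive and 3 a negative difference (14.3% and 10.7%, against 7.42% of all genes in each direction). Of the negative calls, that of Sostdc1 was lost in most fits that leave out 1 library. Without proximal 21 day replicate 3, for example, its difference was -0.93 (limma, adjusted p = 0.112). The ligand gene Bmp4 rose 1.35-fold after distal amputation (difference 0.74 ± 0.18, adjusted p = 0.00836). The inhibitor gene Fst (follistatin) fell from 1590, 1255, 1259 and 1500 to 973, 1124, 877 and 808 after distal and rose from 697, 706, 697 and 652 to 1221, 1071, 1094 and 742 after proximal amputation, without overlap in either case. Its difference was -1.13 ± 0.19 (limma, adjusted p = 0.000458). Chrd (chordin), another inhibitor, fell 2.34-fold after proximal amputation (1.01 ± 0.25, adjusted p = 0.00781). The target genes Smad6 and Id2, which feed back on or carry out the response, rose 1.39-fold and 1.30-fold after distal and fell 1.38-fold and 1.33-fold after proximal amputation. The receptor genes Bmpr1a and Bmpr2 had no called difference.

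Of 33 genes of Wnt signalling 7 had a positive and 1 a negative difference (21.2% and 3.03%, against 7.42% of all genes in each direction). Scaling by the table total left 5 positive. The ligand genes were Wnt5a, which fell 2.05-fold after proximal amputation (difference 1.12 ± 0.18, adjusted p = 0.00025), and Wnt11, which rose 2.05-fold after distal amputation (1.19 ± 0.28, adjusted p = 0.00639). The secreted antagonist gene Sfrp4 was the negative one. It fell from 270, 281, 447 and 362 to 15, 46, 37 and 72 after distal amputation, 8.79-fold, and was at 184, 49, 101 and 76 and then 70, 72, 54 and 69 after proximal amputation. Its difference was -2.67 ± 0.53 (limma, adjusted p = 0.00164). Nkd1, a feedback inhibitor that is a target of the pathway, rose from 139, 155, 215 and 134 to 337, 336, 318 and 286 after distal and fell from 169, 248, 213 and 182 to 156, 107, 135 and 108 after proximal amputation (1.69 ± 0.24, adjusted p = 8.74e-05). The receptor gene Lgr5 rose 1.82-fold after distal amputation (1.30 ± 0.35, adjusted p = 0.0159). The pathway's transcription factor gene Lef1 had a difference of -0.12 ± 0.62 (adjusted p = 0.928).

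In the hedgehog pathway 2 of 11 genes had a positive difference (18.2%, against 7.42% of all genes). They were the transcription factor gene Gli2 (0.69 ± 0.16, limma, adjusted p = 0.00581) and the signal transducer gene Smo (0.39 ± 0.08, adjusted p = 0.00337). Gli2 stood at 106, 91, 103 and 104 and then at 160, 140, 190 and 133 after distal, and at 170, 164, 173 and 191 and then at 149, 149, 183 and 180 after proximal amputation; the distal groups did not overlap. Scaling by the table total left 1 of the 11 called. Of 13 retinoic acid genes 3 had a positive and 1 a negative difference (23.1% and 7.69%, against 7.42% of all genes in each direction). The list median was -0.02. Scaling by the table total left 1 positive, and the fits that leave out 1 library gave 1 to 3. The positive calls for Aldh1a2 and Rdh10 were lost in most of those fits. Cyp26a1, an enzyme that degrades retinoic acid, stood at 74, 60, 18 and 46 and then at 105, 109, 76 and 99 after distal amputation. After proximal amputation it stood at 43, 56, 63 and 64 and then at 21, 5, 22 and 13. Its difference was 3.10 ± 0.59 (limma, adjusted p = 0.00114), made of a called proximal fall (3.96-fold) and a distal change that missed the threshold (adjusted p = 0.0551). Cyp26b1, another such enzyme, ran from 1596 to 2278 and then 1728 to 2039 after distal amputation. It ran from 1361 to 1452 and then 1478 to 1616 after proximal amputation.

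Bone cell genes changed at both levels. By limma 0 of 16 osteoblast genes were called (1 positive and 3 negative at an unadjusted p under 0.05; median difference -0.19), with 7 falls and 1 rise after distal and 6 falls and 2 rises after proximal amputation. With 1 library left out, 1 of the 16 was called in 5 of 16 fits. Spp1 (osteopontin) had a called negative difference without proximal 12 day replicate 1 (-1.55), and Bglap had one without distal 12 day replicate 1. Omd (osteomodulin) had a called positive one without replicate 2 of either 12 day group or of the distal 21 day group. Spp1 and Omd were named after their values were seen. Ibsp, bone sialoprotein of the mineralising matrix, fell from 2962, 6219, 12519 and 4729 to 1198, 857, 470 and 1163 after distal and from 10578, 1634, 4047 and 5685 to 642, 635, 536 and 1497 after proximal amputation. Its distal fall was 6.63-fold, its proximal fall 5.90-fold and its difference -0.17 ± 0.78. Sp7, the transcription factor osterix, fell 4.32-fold and 3.85-fold, and Alpl, alkaline phosphatase, 2.60-fold and 2.45-fold. The late osteoblast and osteocyte genes Bglap (osteocalcin) and Dmp1 varied widely between libraries, with differences of -2.59 ± 1.20 (adjusted p = 0.158) and -1.40 ± 1.00 (adjusted p = 0.38).

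Osteoclast genes fell at both levels, 11 of 13 after distal (median -2.61) and 8 of 13 after proximal amputation (median -1.27, with 1 rise), and 0 had a called difference in limma (3 negative and 0 positive at an unadjusted p under 0.05). Acp5, the acid phosphatase that marks osteoclasts, fell 6.11-fold after distal amputation, from 6857, 2793, 4377 and 7202 to 527, 648, 874 and 1443. After proximal amputation its values were 7558, 903, 1688 and 2252 and then 805, 707, 1109 and 1239, with replicate 1 at 12 days far above its group. The difference for Acp5 was -1.35 ± 0.68 (limma, adjusted p = 0.196), and without proximal 12 day replicate 1 it was -1.93 (adjusted p = 0.0246). Without that library 4 of the 13 osteoclast genes were called negative, without distal 21 day replicate 4 2 were, and without distal 12 day replicate 2 1 was. Mmp9, the gelatinase of osteoclasts and neutrophils, fell 15.2-fold after distal amputation, and its difference of -2.40 ± 0.90 was not called (adjusted p = 0.0754).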

How the data were processed

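RNA was sequenced from 24 digit tip libraries in 6 groups of 4, grouped by the amputation and day in the labels. The submitters' processing notes name cutadapt, STAR 2.5.4b, featureCounts 1.6.3 (Subread) and build mm10. The handling of strand was not given in the sources used here; values of genes that overlap, antisense pairs included, are uncertain for that reason. The deposited whole numbers were taken as a score rather than as counts of reads. Library upper quartiles differed little, and over 9650 genes above 100 in every library, the direction of least spread across libraries had a natural-log spread of 0.00674, below the 0.0453 of Poisson sampling. The authors' values thus look normalised and rounded, though neither labels nor header mention it. Scaling whole libraries leaves the least spread unchanged, so some further step appears to have acted across the libraries. What that step was, and whether the 18 residual degrees of freedom used below still hold after it, was not tested. Depth is unknown, no counting interval was computed and p-values may be too small.

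The model was limma 3.58.1 (R 4.3.3) on log2(value + 1) (6 group means in lmFit, eBayes with a trend, 18 residual and 3.91 prior degrees of freedom), with Benjamini-Hochberg adjustment over 15055 genes and a threshold of 0.05. Errors are moderated standard errors; folds come from log2(value + 1) and are too small for genes with low values. Every gene reached 20 in some library and no filter was applied. On simulated data (15055 genes, 200 changed, 5 draws) 69.6% of 2-fold and 93% of 4-fold differences were recovered, and 4.64% of calls were false. That false share lies near the 0.05 at which the adjustment was set. Only 200 genes were changed there, whereas 2234 were called in the real data. The simulated rates therefore do not give the error rate of the real calls, which was not tested.

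The contrast and the 35 gene lists were chosen with earlier results of these data known. Names were drawn from the 14 largest differences in each direction (mean value of at least 50 over the 16 compared libraries, called with the same sign without each library in turn), up to 6 called and 3 other members of each list with a call, a panel of 9 genes (Bglap, Dmp1, Acp5, Acan, Tnmd, Postn, Msx1, Lef1, Mki67) and the cell type markers; other names are said to be chosen after their values were seen. Lists are described by counts and medians, without a test. Gene positions are from GENCODE M21 (GRCm38). Alternatives were 2 other scalings, pseudocounts of 0.5 and 8, a mean value of at least 50 over all 24 libraries, only the 16 compared libraries, quality weights, a replicate block and each library left out.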

Additional observations from a re-analysis of the deposited data

Results flagged for a closer look

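By the test of the difference itself, 2234 genes had unequal changes at the 2 amputation levels. Among 112 groups of 4 libraries checked for the 14 largest positive and 14 largest negative differences, 10 held a library far from the other 3; chance alone flags about 1 group in 20.

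Among the inflammatory and protease genes, Mmp3 was at 752 in proximal 21 day replicate 2, with the others at 89 to 172. Cxcl5 was at 27 in the same library (others 3 to 5) and at 5 in distal 21 day replicate 4 (others all at 3, so that the gap is of 2 units of the rounded scale). Slpi was at 55 in distal 21 day replicate 2 (others 29 to 32). Without proximal 21 day replicate 2 the difference between levels was -3.50 for Mmp3 and -3.38 for Cxcl5, in log2. Both were still called, which was a condition of their choice.

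Among the genes near the keratin-associated proteins, Gm11564 was at 834 in distal 12 day replicate 4 (others 111 to 168) and Gm11568 at 288 in proximal 12 day replicate 1 (others 28 to 64). Among the matrix and other genes, Acan was at 2302 in distal 21 day replicate 1 (others 729 to 996) and Col8a2 at 2139 in distal 21 day replicate 4 (others 1291 to 1384). H19 was at 322 in distal 12 day replicate 1 (others 171 to 196), and C1qtnf2 at 147 in proximal 12 day replicate 1 (others 257 to 278). Each of these genes was called with the same sign without each library in turn. That was a condition of their choice and is no separate check.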

How the results depend on the processing

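The counts of genes called, in all and in each direction, for the difference between levels and for the change within each level stayed within 1.5 times under both pseudocounts, the filter, the 16 compared libraries alone, quality weights, median-ratio factors and each library left out. The exception was division by the table total, which gave 595 positive differences in place of 1117 and 675 distal rises in place of 1326. Leaving out single libraries gave 1729 to 2178 genes with a difference between levels, 2919 to 3630 with a distal and 3616 to 4393 with a proximal change.

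What a replicate number stands for is not stated. Of 24 same-numbered pairs of libraries from 2 compared groups, 4 had deviations that correlated above 0.1 (range -0.122 to 0.208). In 5 of 24 comparisons of a library with another group the best match had its own number. Whether same-numbered libraries shared a mouse or a batch cannot be told from these correlations. With the replicate number as a block, 2208 genes were called in place of 2234 (1098 positive and 1110 negative), and 0 of 5 wound keratins in place of 2 (Krt6a and Krt17, which also lost their calls in 12 and 9 of the 16 fits that leave out 1 library). Without proximal 12 day replicate 1, 0 wound keratins, 2 nail matrix regulators (1 with it) and 1 of 3 adipocyte genes (0 with it) were called.

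The sign of Lef1, which was not called, (-0.43 to 0.19 with single libraries left out) changed without distal 12 day replicate 2 (0.16), distal 12 day replicate 3 (0.19), distal 21 day replicate 3 (0.09), proximal 12 day replicate 2 (0.02) and proximal 12 day replicate 4 (0.05). Bglap was called without distal 12 day replicate 1 (-3.47, limma adjusted p = 0.0396), as was Acp5 without proximal 12 day replicate 1, and Msx1 was not called in 3 fits given above. Each gene among the 14 largest differences in either direction kept its sign and its call in each alternative that held it. For the fits that leave out 1 library, this was a condition of the choice of these genes. The filter, on the mean over all 24 libraries, left out Cxcl1, Cyp26a1 and Nlrp3, whose mean over the 16 compared libraries reached 50. The medians of the metalloproteinase, interferon response and pericyte lists changed sign with the scaling. Sequencing depth is unknown, so what low values can show is limited by their rounding to whole numbers.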

Other observations

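The 14 day libraries, which the contrast does not use, held the highest mean of the distal series for most matrix genes. This was seen after plotting the values and was not tested. After distal amputation 28 of 30 fibroblast matrix and myofibroblast genes, 14 of 16 tendon and ligament genes, 13 of 16 cartilage genes and 19 of 23 limb patterning genes had a mean log2 value at 14 days above those at 12 and 21 days, against 37.5% of all genes. After proximal amputation the same held for 10, 6, 6 and 11 of these genes, against 30.3% of all genes. Postn, for example, stood at 26565, 39336, 28510 and 30496 at 14 days after distal amputation, above both other distal groups, and at 36584, 33761, 31590 and 21235 after proximal amputation, between the other proximal groups. All 12 endothelial genes were highest at 14 days after either amputation, and 0 of 30 mitosis genes were. All 12 hair and nail keratins were highest at 14 days after proximal amputation, and 1 of 12 after distal amputation. S100a9 at 14 days after distal amputation was split between libraries, at 1042, 9378, 1607 and 43.

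Immediate early genes encode transcription factors induced within minutes of a stimulus. After distal amputation 10 of 17 rose and after proximal amputation 11 of 17, with none falling, against rises in 8.81% and 12.0% of all genes. Klf4 rose 1.53-fold and 1.5-fold, and Klf6 1.49-fold and 1.65-fold. The difference between levels was called for 1 of the 17 in each direction (5.88%, near the 7.42% of all genes). It was called for Fosl1 (-1.38 ± 0.35, limma adjusted p = 0.0102), which rose 1.69-fold after distal and 4.40-fold after proximal amputation. Fosl2 was called too (0.36 ± 0.12, adjusted p = 0.0471) but lost the call in 13 of the 16 fits that leave out 1 library.

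Endothelial genes fell in 7 of 12 cases after distal and 3 of 12 after proximal amputation. By limma 0 of them had a called difference between levels (2 negative and 0 positive at an unadjusted p under 0.05). Kdr, the main receptor for vascular endothelial growth factor, fell 2.36-fold and 1.67-fold.

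Genes of glycolysis and hypoxia gave 2 positive calls among 20 (10.0%, near the 7.42% of all genes). Bnip3, a mitophagy receptor induced by low oxygen, rose 1.5-fold after distal and fell 1.70-fold after proximal amputation (1.35 ± 0.26, limma adjusted p = 0.00132). Ndrg1, another gene induced by low oxygen, stood at 1633, 1875, 2351 and 2024 and then at 2764, 2937, 2376 and 2570 after distal amputation (difference 0.63 ± 0.14, adjusted p = 0.00467). The enzyme genes Ldha, Aldoa and Pkm had no called difference.

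Of 41 genes of the epidermis and cornified envelope 1 was called. Crnn, which encodes cornulin, rose from 62, 93, 67 and 87 to 350, 658, 511 and 438 after distal amputation; its difference of 3.48 ± 1.00 (limma adjusted p = 0.0219) lost the call without proximal 21 day replicate 3 (2.96, adjusted p = 0.0523). The 6 erythroid genes had a median difference of 3.17 with 0 called by limma and 0 at an unadjusted p under 0.05, and Hbb-bs ran from 54 to 10187 over the 16 libraries.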
